A study of Mus musculus with 12 samples.

Results

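Fgfbp1, Serpinb1a, Exoc3l4, Ak4 and 4930512H18Rik are 5 of the 18193 mouse genes with a probe set of their own on the array, and they have in common a higher signal in muscle without Stat5a and Stat5b than in wild-type muscle, both without and with growth hormone (GH). They were chosen on exactly those differences in these arrays, so their knockout against wild-type values are given as a description, with no test. Each gene was read from its brightest probe set, and its other probe sets are given beside it. Total RNA of 12 mice was hybridised to 1-colour Affymetrix arrays, 3 arrays in each of 4 groups: wild-type controls without GH (WT), mice without Stat5a and Stat5b and without GH (KO), wild-type controls given GH (WT with GH), and mice without Stat5a and Stat5b given GH (KO with GH). The titles give every array an animal number of its own, and these numbers begin with M on all arrays with GH and on none without it. The labels state no GH dose, duration, sex, age, strain or deleting Cre line. The series title is about skeletal muscle, whereas the treatment text of the labels places the loss of both genes in blood cells. On all 12 arrays the fast-fibre muscle genes Myh4, Ckm and Actn3 had signals of 37250 to 74700, and the signal of Stat5b was 2820 ± 162 (SD, n = 3) in WT, 428.2 ± 63.7 in KO and, after GH, 1794 ± 101 in WT and 361.7 ± 25.2 in KO. That of Stat5a was 626.7 ± 90.5 in WT, 254.5 ± 97.5 in KO and, after GH, 401.8 ± 29.7 in WT and 161.7 ± 33.5 in KO.

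GH binds its receptor on the cell surface, the kinase JAK2 phosphorylates STAT5A and STAT5B, and these move to the nucleus, where they bind DNA and switch genes on or off. The 5 genes belong to unrelated families. Fgfbp1 encodes a secreted carrier that releases fibroblast growth factors from the matrix. Serpinb1a encodes an intracellular inhibitor of neutrophil serine proteases. Exoc3l4 is a relative of the exocyst subunit Exoc3, part of the complex that tethers secretory vesicles to the plasma membrane. Ak4 encodes an adenylate kinase of the mitochondrial matrix, and 4930512H18Rik is annotated as a long non-coding RNA.

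Since STAT5 acts through DNA, the promoters were read for the letters of its motif. RefSeq start sites (build GRCm38.p6, 250 bases before to 50 bases after each start) matched 4 of the 5 genes, with 10 starts. Serpinb1a had no match. Starts 1 to 3 of Ak4 lie close together, as do starts 1 and 2 of Exoc3l4. Their stretches hold mostly the same letters, so the 10 are not separate promoters. The motif TTCNNNGAA, to which STAT proteins bind, was in 1 of these 10 promoters, the third start of 4930512H18Rik, 117 bases before the start. It was in 2726 of all 32851 promoters in the same table (8.3%). Of the core of the hypoxia response motif only the form ACGTG was searched, on both strands, and other forms were not. ACGTG was present only in the promoter of Ak4 start 4, where both strands of 1 CACGTG hold it (positions -214 and -213), against 6447 of 32851 promoters (19.6%). The EGR motif GCGTGGGCG was in none of the 10, against 201 of 32851 (0.612%). A match shows the letters only and says nothing of binding. The promoter of Fgfbp1, shown because it held none of the letters searched, and those with a match are printed 5′ to 3′ on the gene's strand, with the match in capitals.
Fgfbp1, chr5:43981750-43982049, minus strand: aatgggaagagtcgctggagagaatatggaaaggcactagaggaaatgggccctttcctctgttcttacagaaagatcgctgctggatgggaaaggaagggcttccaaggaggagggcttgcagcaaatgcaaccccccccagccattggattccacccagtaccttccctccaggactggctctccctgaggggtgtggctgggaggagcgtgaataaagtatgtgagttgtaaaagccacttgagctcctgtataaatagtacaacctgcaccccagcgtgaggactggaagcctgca
Ak4 start 4, chr4:101419453-101419752, plus strand: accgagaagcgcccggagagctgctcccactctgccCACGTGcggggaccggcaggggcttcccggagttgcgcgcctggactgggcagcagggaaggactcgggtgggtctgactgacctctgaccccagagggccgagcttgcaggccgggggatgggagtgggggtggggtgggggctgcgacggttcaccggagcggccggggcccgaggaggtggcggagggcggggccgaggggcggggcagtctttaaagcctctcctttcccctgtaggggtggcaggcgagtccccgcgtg
4930512H18Rik start 3, chr8:61919397-61919696, plus strand: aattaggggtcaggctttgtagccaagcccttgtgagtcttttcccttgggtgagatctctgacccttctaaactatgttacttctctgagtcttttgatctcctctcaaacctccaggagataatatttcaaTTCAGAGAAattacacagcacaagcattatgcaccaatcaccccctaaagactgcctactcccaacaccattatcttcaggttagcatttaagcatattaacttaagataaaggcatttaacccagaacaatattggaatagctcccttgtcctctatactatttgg

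Fgfbp1 differed between the genotypes by nearly the same amount without and with GH. Its signal was 78.31, 63.99 and 85.31 on the WT arrays and 404.7, 455.8 and 291.9 on the KO arrays. With GH it was 109.8, 112.9 and 98.22 in WT and 540.4, 477.1 and 443.6 in KO. Every KO array lay above every WT array, and the lowest KO signal was 3.42-fold the highest WT signal without GH and 3.93-fold with GH. On the log2(signal + 25) scale, on which all differences below are given, KO was higher by 2.004 ± 0.171 (SE) without GH and by 1.95 ± 0.171 with GH. Of the 5 genes it was the one whose 2 genotype differences were nearest to each other.

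For Serpinb1a the genotype difference had a larger value with GH than without, a change that did not pass the interaction test. The signals were 109, 130.2 and 88.51 in WT and 517.8, 383.7 and 379.3 in KO. After GH they were 140, 185.4 and 100.2 in WT and 912.3, 902.2 and 919.7 in KO. KO and WT did not overlap in either condition, and the 3 arrays of KO with GH differed from each other by only 1.02-fold. KO was higher by 1.75 ± 0.186 without GH and by 2.52 ± 0.186 with GH. The second probe set, a dim one of the kind whose probes can match several related transcripts, read 42.04, 56.24 and 50.75 in WT and 45.02, 56.8 and 60.66 in KO without GH, so that the groups overlapped. With GH it read 3.796, 69.52 and 46.09 in WT and 147.2, 168.6 and 141.1 in KO. Its difference was thus 0.08 without GH and 1.61 with GH, and the first of these does not show the difference of the bright probe set.

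For Exoc3l4 the difference had a larger value without GH, a change that did not pass either, and its KO arrays without GH were far apart. It read 334.6, 268.4 and 211.7 in WT and 981.4, 1307 and 2552 in KO. After GH it read 252.7, 277.3 and 261.3 in WT and 872.9, 891.1 and 949.2 in KO, so that the genotypes did not overlap in either condition. The third KO array was 2.6-fold the first, whereas the arrays of KO with GH differed by 1.09-fold. KO was higher by 2.37 ± 0.25 without GH, or 1.99 without the third KO array, and by 1.69 ± 0.25 with GH. Both SEs rest on 1 spread shared by the 4 groups. The SD on the log2 scale was 0.302 in WT and 0.696 in KO, and with GH 0.062 and 0.0613. The SE without GH is thus smaller than the WT and KO arrays alone would give.

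Ak4 had the smallest genotype differences of the 5. Its main probe set is of the same kind as the second one of Serpinb1a, whose probes can match several related transcripts. The signals were 380.9, 231.1 and 134.6 in WT, 498, 800.9 and 806.6 in KO and, after GH, 347.4, 382.3 and 333.3 in WT and 748.1, 794.4 and 808 in KO. The lowest KO array was 1.31-fold the highest WT array without GH and 1.96-fold with GH. KO was higher by 1.48 ± 0.256 without GH and 1.09 ± 0.256 with GH. The SD on the log2 scale was 0.673 in WT and 0.383 in KO, and with GH 0.095 and 0.0566, whereas the SE shares 1 spread. A second bright Ak4 probe set read 199.2, 170 and 147.1 in WT, 410, 485 and 556.2 in KO and, after GH, 290.2, 196.4 and 219.9 in WT and 538.1, 536.4 and 578.6 in KO. It put KO higher by 1.37 and 1.16. Of the 3 dim Ak4 probe sets, 1 was higher in KO by 0.84 without GH and 1.12 with GH, 1 by 0.37 and -0.59, and 1 by 0.16 and 0.08.

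4930512H18Rik was near the bottom of the measurable range in wild-type muscle. It read 35.51, 59.47 and 12.85 in WT and 34.71, 68.71 and 45.71 in WT with GH. In KO it read 201.9, 437.3 and 622.2, and in KO with GH 171, 240.2 and 182.3. Genes were tested where their mean over the 12 arrays lay above a signal of 51.3, and this gene passed only through its KO arrays, while the other 4 genes were above that level in every group. KO was higher by 2.82 ± 0.355 without GH and 1.59 ± 0.355 with GH, and with a pseudocount of 1 in place of 25 the first value was 3.61.

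**Figure D1:**
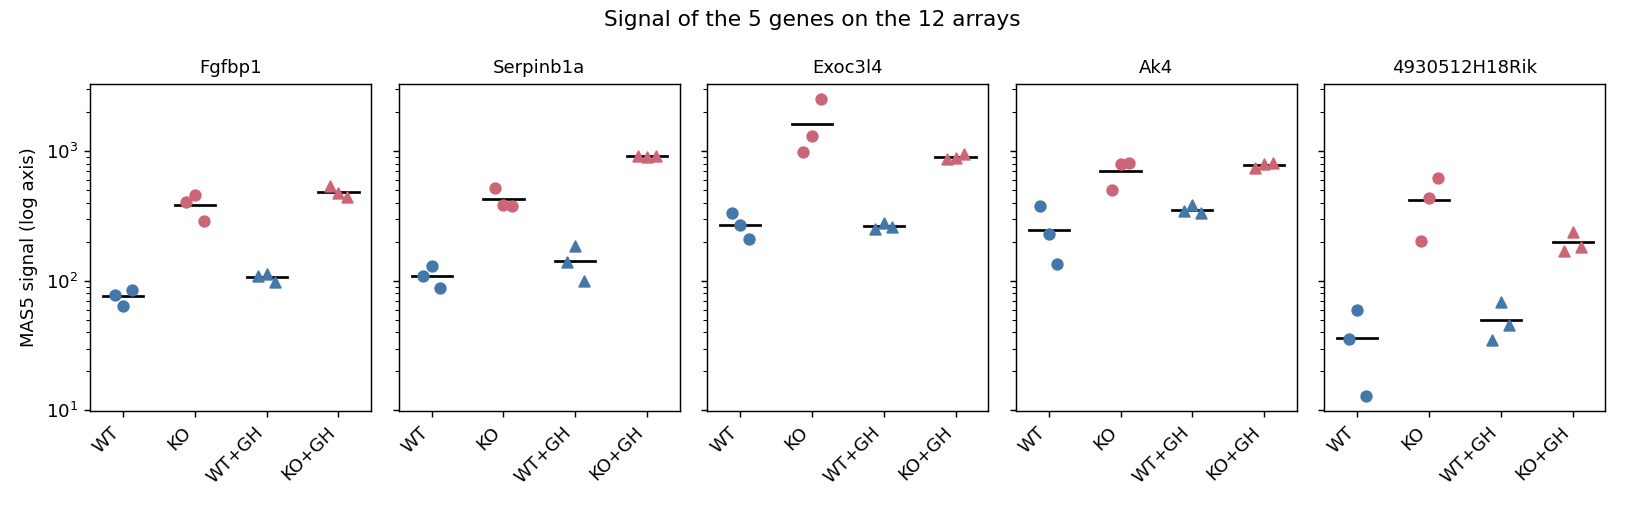
MAS5 signal (log axis) of the main probe set of each gene on the 12 arrays, with 3 points a group and a bar at the arithmetic mean; circles are arrays without GH and triangles arrays with GH. Every KO point lies above every WT point of the same GH condition, with the narrowest gap in Ak4 without GH (1.31-fold).

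**Figure D2:**
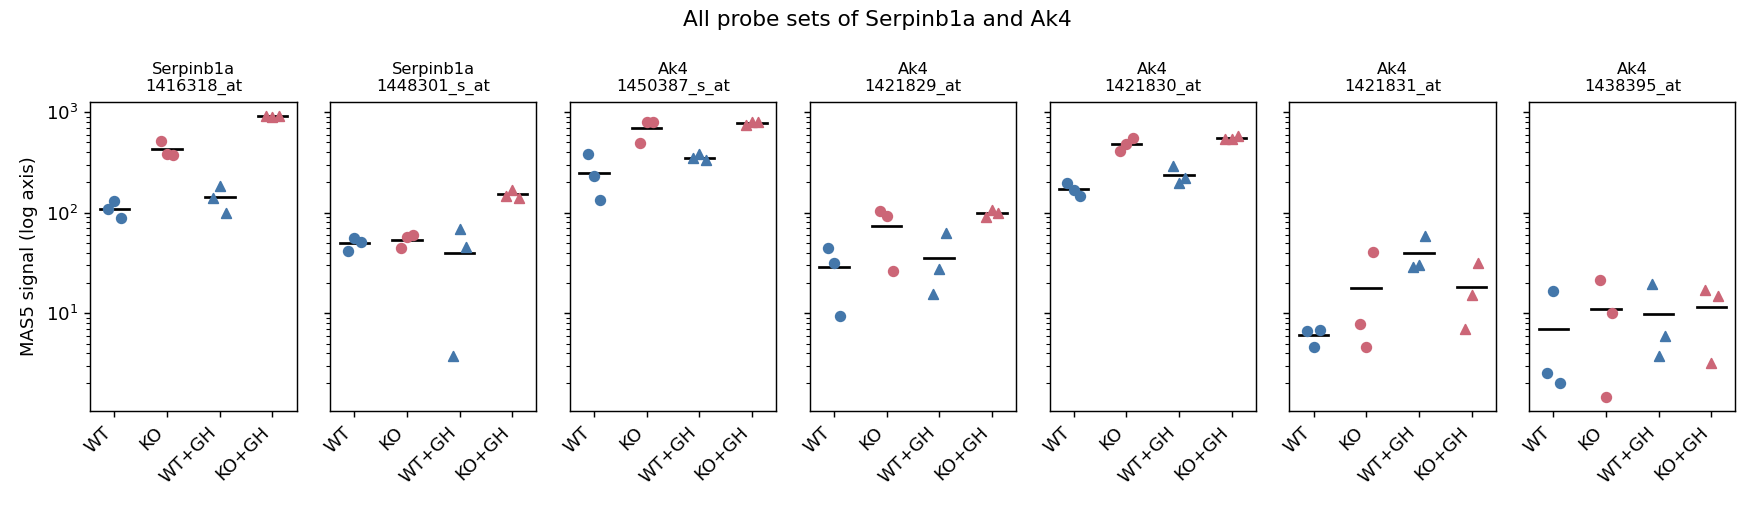
MAS5 signal (log axis) of both Serpinb1a probe sets and all 5 Ak4 probe sets, with 3 arrays a group and a bar at the mean. The dim Serpinb1a probe set separates KO from WT only with GH, and the dim Ak4 probe sets reach at most 107.4.

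Over all 12654 genes tested, 98 (0.774%) passed limma's adjusted p threshold of 0.05 as higher in KO without GH, 306 (2.42%) with GH and 50 (0.395%) in both, and 45 genes were lower in both. Replicates without overlap and higher in KO were seen for 6.20% of genes without GH, 13.8% with GH and 2.02% in both. The 5 genes are among the 50 by the way they were chosen. Ordered by the smaller of the 2 differences, Fgfbp1, Serpinb1a, Exoc3l4 and 4930512H18Rik take places 1 to 4 and Ak4 stands 10th at 1.09. Between 4930512H18Rik (1.59) and Ak4 lie Otud1 (1.36), Tceal7 (1.31), Tnfaip2 (1.19), Sln (1.16) and Fos (1.13), and Gamt (1.08) follows. These 6 genes are named for their place in that order, after their values were seen.

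The arrays with GH also differed from those without in measures that are not muscle genes. The bacterial poly-A control RNAs added before labelling (24 probe sets) had a geometric mean signal of 129 to 168 on the arrays without GH and 442 to 467 on those with it (3.03-fold, p = 0.0022 by an exact permutation test, adjusted over 4 measures 0.0029). The median signal of an array was 79.3 to 92.4 without GH and 97.4 to 102 with it (1.18-fold, exact permutation p = 0.0022, adjusted 0.0029). The beta actin 3 prime over 5 prime ratio was 0.805 to 0.864 and 0.887 to 1.01 on the same arrays (p = 0.0022 by an exact permutation test, adjusted 0.0029). The same ratio for Gapdh was 0.834 to 0.877 without GH and 0.795 to 0.86 with it (0.977-fold, exact permutation p = 0.16). GH cannot be told apart from the labelling of the arrays or from the separate numbering of the animals.

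The response to GH was tested in the same limma fit, over all genes. Averaged over genotypes it shares no contrast with the choice of the 5 genes. Within a genotype it comes from the same arrays and also holds the interaction of genotype and GH, which the choice limits, so that those p-values carry this limit. In KO muscle Serpinb1a rose with GH, from a mean signal of 426.9 ± 78.7 (SD, n = 3) to 911.4 ± 8.76, a 2.09-fold change (log2 1.07 ± 0.186, adjusted p = 0.000833), with all 3 arrays with GH above all 3 without. It was the 1 gene of the 5 that passed in KO muscle, where 24.3% of all genes did. The call held when any single array was left out (adjusted p of 0.000409 to 0.00529). In WT muscle the same gene went from 109.2 ± 20.8 to 141.9 ± 42.7, and the groups overlapped (0.29 ± 0.186, adjusted p = 0.298). None of the 5 genes passed for GH in WT by limma, against 19.1% of all genes, and 2 of the 5, Fgfbp1 and Ak4, had an unadjusted p under 0.05, as had 32.6% of all genes.

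Averaged over both genotypes, Serpinb1a rose with GH by 0.68 ± 0.131 (adjusted p = 0.001) and Fgfbp1 by 0.37 ± 0.121 (adjusted p = 0.0272), 2 of the 5 genes against 36.9% of all genes. The Fgfbp1 rise was a 1.29-fold change (95% interval 1.08 to 1.54). In WT, the 3 arrays with GH (mean 107 ± 7.73) all lay above those without (75.87 ± 10.9), as they did for 34.3% of all genes in either direction. In KO they overlapped, at 487.1 ± 49.1 with GH and 384.1 ± 83.9 without. The Fgfbp1 call was lost when WT 2 (adjusted p = 0.0582), KO 3 (0.0628), WT with GH 2 (0.0554), KO with GH 1 (0.076) or KO with GH 2 (0.0516) was left out, and by limma after quantile normalisation (adjusted p = 0.103).

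The other 3 genes did not pass for GH by limma, but 2 of them had lower values with GH in KO muscle. Exoc3l4 was lower by 0.70 ± 0.25 there (adjusted p = 0.0547), and its 3 arrays with GH all lay below the 3 without, while 44.4% of all genes were without overlap in one direction or the other. 4930512H18Rik differed by -0.89 ± 0.355 (adjusted p = 0.0832) with overlapping arrays, and since it passed the filter on low signals only through its KO arrays, its p-values are no support for a difference. Without the first KO array, the lowest of its group for both genes, Exoc3l4 passed limma's threshold in KO (-0.996, adjusted p = 0.00676) and averaged over genotypes (-0.51, adjusted p = 0.0179), and the value of 4930512H18Rik was -1.31 (adjusted p = 0.0115). In WT the GH differences of both genes were -0.02 ± 0.25 and 0.34 ± 0.355. Ak4 was higher with GH by 0.57 ± 0.256 in WT (adjusted p = 0.138) and by 0.19 ± 0.256 in KO (adjusted p = 0.648). Without the first WT array, the highest of its group, the WT difference of Ak4 was 0.91 (adjusted p = 0.009) and the average 0.55 (adjusted p = 0.00777).

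The genotype difference changed with GH by 0.77 (95% interval 0.21 to 1.33) for Serpinb1a, -0.69 (-1.44 to 0.07) for Exoc3l4, -0.39 (-1.16 to 0.39) for Ak4, -1.23 (-2.30 to -0.16) for 4930512H18Rik and -0.05 (-0.57 to 0.47) for Fgfbp1. By limma 0 of these 5 interactions passed after adjustment, with adjusted p-values from 0.281 to 0.966, where 0.933% of all genes did. Serpinb1a and 4930512H18Rik had an unadjusted p under 0.05, as had 10.4% of all genes. That of 4930512H18Rik is no support for a difference, since this gene passed the filter on low signals only through its KO arrays. The interaction is the difference of the 2 contrasts on which the genes were chosen, and the choice of genes with both above 0 limits the values it can take.

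**Figure D3:**
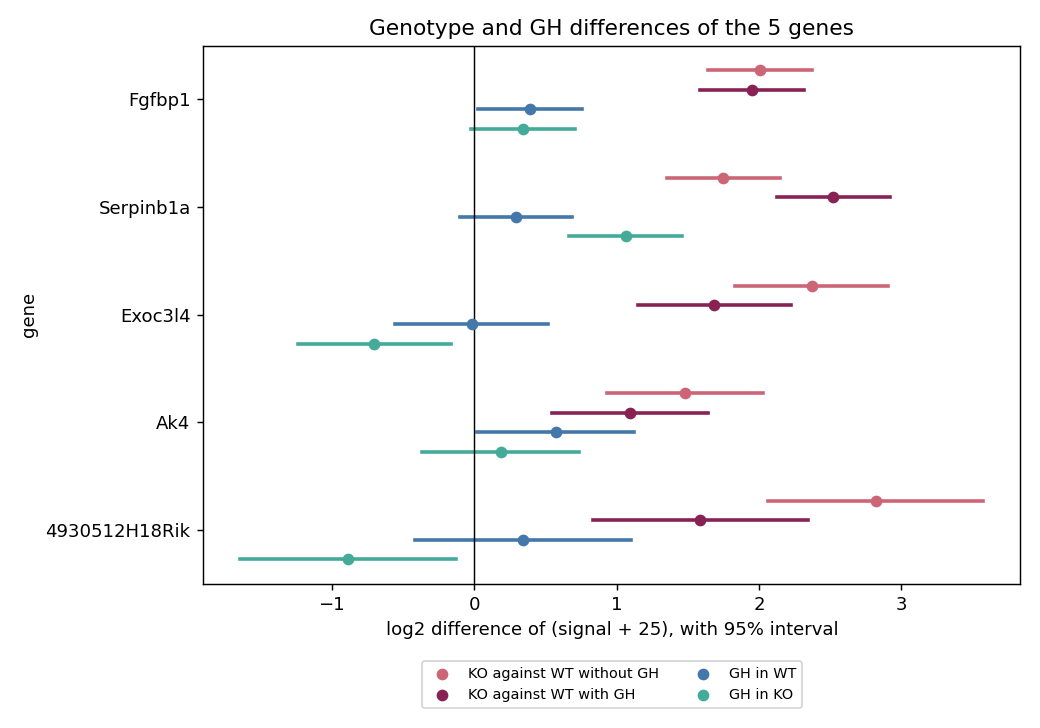
Difference on the log2(signal + 25) scale for each gene, with the 95% interval of the limma fit, for KO minus WT without and with GH and for with GH minus without GH in WT and in KO. The KO minus WT values run from 1.09 (Ak4 with GH) to 2.82 (4930512H18Rik without GH), and of the GH values only that of Serpinb1a in KO (1.07) passed the adjusted threshold.

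With the actin ratio as a covariate the GH difference of Serpinb1a in KO was 1.86 (adjusted p = 0.0537) and its average 1.31 (adjusted p = 0.0568), and the Fgfbp1 average was 0.28 (adjusted p = 0.74). The poly-A controls and the actin ratio did not separate the genotypes without GH, where the poly-A range of the KO arrays (129 to 155.8) overlapped that of WT (147.2 to 167.5). After GH, actin ratios of 0.887 to 0.932 were read in WT and 0.962 to 1.01 in KO, and their part in the genotype differences with GH was not tested beyond the covariate fit, which gave KO minus WT of 2.92 for Serpinb1a and 1.24 for Exoc3l4. The calls between the genotypes with GH given below for Exoc7, Socs2, S100a9, Slc2a1 and Slc25a5 were lost with this covariate (adjusted p of 0.0528 to 0.323).

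Within the groups the 5 genes did not scatter alike. The residual SD over the 12 arrays was 0.192 for Fgfbp1, 0.25 for Serpinb1a, 0.382 for Exoc3l4, 0.391 for Ak4 and 0.524 for 4930512H18Rik, at percentiles 55.4, 71.3, 89.3, 90 and 96.3 of all genes. Deviations of single arrays from their group means were correlated between Exoc3l4 and 4930512H18Rik (r = 0.76 over 12 arrays), Exoc3l4 and Ak4 (0.68) and Ak4 and 4930512H18Rik (0.66). Those of Fgfbp1 ran against Exoc3l4 (-0.70) and 4930512H18Rik (-0.55), and Serpinb1a was near 0 with each of the others (-0.20 to 0.09). The third KO array was high for Exoc3l4 (0.77 above its group mean) and 4930512H18Rik (0.67) and low for Fgfbp1 (-0.35), while the first KO array was low for Exoc3l4 (-0.59), Ak4 (-0.44) and 4930512H18Rik (-0.85). All genes of an array share its RNA extract and scaling, and these correlations are a description without p.

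**Figure D4:**
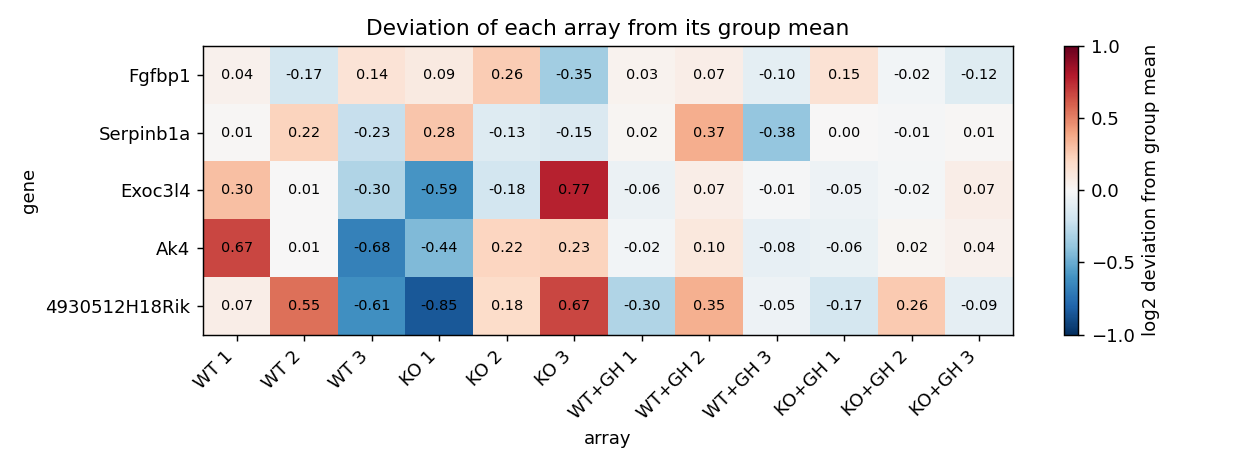
Deviation of each array from its group mean on the log2(signal + 25) scale, with genes in rows and arrays in columns. The largest deviations lie in the WT and KO groups without GH, as in KO 3 for Exoc3l4 (0.77) and KO 1 for 4930512H18Rik (-0.85), and those of Exoc3l4 and Ak4 in the GH groups are at most 0.105 in size.

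Slow-fibre genes were higher in KO without GH. Of 12 such genes 7 rose in KO without GH and 0 fell, with a median of 0.95 beside -0.003 over all genes, and among them were Sln, which regulates the calcium pump of the sarcoplasmic reticulum (1.16 ± 0.176, adjusted p = 0.00228), and Atp2a2, the slow-fibre pump itself (0.73 ± 0.124, adjusted p = 0.00586). The 6 probe sets of Atp2a2 gave -0.15 to 0.73, and the call was lost by the mean of all of them (0.33, adjusted p = 0.163). With GH 1 of 12 rose, Sln (1.32 ± 0.176, adjusted p = 0.000255), although the second of its probe sets gave 0.22 without GH and -0.22 with GH, and the mean of both gave 0.69 (adjusted p = 0.123) and 0.55 (adjusted p = 0.145). Without WT 3 or without KO 3 the 7 became 2, and without WT 2 the 1 with GH became 4. The summed slow-fibre signal was 19720 to 42930 in WT, 48380 to 58050 in KO and, after GH, 39080 to 40820 in WT and 44990 to 46290 in KO. With the mean of the list as a covariate KO minus WT without GH was 2.33 for Fgfbp1, 1.52 for Serpinb1a, 2.26 for Exoc3l4, 1.71 for Ak4 and 1.79 for 4930512H18Rik. With this covariate the calls without GH named here for Sln, Atp2a2, Fgf1, Tnfaip2, Exoc7, Ache and Cish were lost (adjusted p of 0.0823 to 0.923). Their values were then 0.64, 0.08, 0.755, 1.67, 0.48, 0.49 and -3.27, in that order. The summed slow-fibre signal did not overlap between WT and KO without GH, and Sln and Atp2a2 are part of the list. This fit therefore cannot tell genotype from slow-fibre signal, and the cause of the lost calls was not tested. In these whole-tissue samples more cells or fibres of a type and more RNA per cell cannot be told apart. With only the WT and KO groups in the fit, the calls without GH for Atp2a2, Fgf1, Tnfaip2, Exoc7 and Cish were lost. Their limma adjusted p-values were then 0.105, 0.191, 0.0773, 0.303 and 0.27, in that order. Without the trend and robust options the calls of Fgf1 (limma adjusted p = 0.0545) and Exoc7 (0.0864) without GH were lost.

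Fgfbp1 was then set beside the genes of fibroblast growth factor signalling. Of 15 ligands, receptors and binding proteins bright enough to test, 1 was higher in KO without GH, the ligand Fgf1 (0.78 ± 0.152, adjusted p = 0.0149), and 0 passed with GH by limma, where 1 had an unadjusted p under 0.05. The medians were 0.05 and 0.01 (-0.003 and -0.02 over all genes). The Fgf1 call was lost without the third WT array (0.69, adjusted p = 0.0713), and with GH the difference of Fgf1 was 0.01 ± 0.152. The 3 probe sets of Fgf1 gave 0.69 to 1.155 for KO minus WT without GH, -0.95 to 0.005 with GH, and 0.88 to 3.06 for GH in WT. Fgf1 rose with GH in WT by 1.20 ± 0.152 (adjusted p = 8.49e-05), and the receptor Fgfr1 rose with GH by 0.40 ± 0.0904 in WT (adjusted p = 0.00639) and 0.57 ± 0.0904 in KO (adjusted p = 0.000387). The mean of all Fgfr1 probe sets gave 0.00 and 0.10 for the same differences. With the actin ratio as a covariate both Fgfr1 calls were lost (limma adjusted p = 0.139 in WT and 0.267 in KO). The slow-fibre covariate lost that in WT (limma adjusted p = 0.0864). The other carrier of the family on the array, Fgfbp3, differed by -0.18 ± 0.222 and 0.02 ± 0.222 between KO and WT.

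Serpinb1a lies in a cluster of clade B serpin genes. Only 4 of 12 other clade B serpins on the array were bright enough to test, and 0 of these 4 passed for KO against WT by limma, without or with GH (0 had an unadjusted p under 0.05 in either). Serpinb9, an inhibitor of granzyme B, differed by 0.13 ± 0.178 and 0.25 ± 0.178. Serpinb8 was higher with GH in KO by 0.56 ± 0.147 (adjusted p = 0.0128), a call lost without the second array of KO with GH (adjusted p = 0.0615) and a difference of -0.05 by the mean of its probe sets. With the actin ratio as a covariate this call was lost as well (1.015, limma adjusted p = 0.23).

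The proteases that Serpinb1a inhibits belong to neutrophils. Of 9 neutrophil genes 0 passed in KO without GH by limma (1 had an unadjusted p under 0.05), and with GH 0 rose and 2 fell, Ngp (-0.85 ± 0.193, adjusted p = 0.0174) and S100a9 (-0.84 ± 0.182, adjusted p = 0.0126). The Ngp call was lost without WT with GH 2 or 3 or KO with GH 2 or 3 (adjusted p = 0.0649, 0.0719, 0.0771 and 0.0842), and that of S100a9 without WT with GH 1 or 3 or KO with GH 3 (0.052, 0.0629 and 0.0673). The summed signal of the 14 neutrophil genes on the array was 944.5 to 1184 in WT, 808.6 to 987.6 in KO and, after GH, 5054 to 5458 in WT and 4332 to 4359 in KO. Most of the sum with GH came from Lcn2, S100a8 and S100a9, with mean signals of 1850, 986.7 and 1164 in WT and 2347, 543.3 and 637.7 in KO, against 53.98 to 71.19 in both genotypes without GH. With GH 4 of the 9 genes rose and 0 fell in WT, and in KO 4 rose and 2 fell, Prtn3 (-1.09 ± 0.362, adjusted p = 0.0391) and Mmp9 (-0.95 ± 0.174, adjusted p = 0.00124). The sum was thus higher with GH in both genotypes, overlapped between the genotypes without GH and was lower in KO than in WT with GH, whereas Serpinb1a was higher there. Its part in the GH difference of Serpinb1a was not tested. The granule proteins Elane and Mpo had mean signals between 16.27 and 91.33 in all 4 groups.

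Exoc3l4 shared its higher KO signal with 2 of 12 exocyst subunits and relatives, without GH and with GH, and 0 fell. Tnfaip2, a relative of Exoc3 that lies next to Exoc3l4 in the RefSeq gene order, had a mean signal of 2688 ± 819 in WT, 6087 ± 1470 in KO and, after GH, of 1245 ± 197 in WT and 6358 ± 95.9 in KO, and the genotypes did not overlap in either condition. It was higher in KO by 1.19 ± 0.188 without GH (adjusted p = 0.00498) and 2.34 ± 0.188 with GH (adjusted p = 3.81e-06), and with GH it fell in WT, a difference of -1.07 ± 0.188 (adjusted p = 0.00155). Its 3 probe sets gave 0.45 to 1.19 without GH and -0.01 to 2.34 with GH, and for GH in WT -1.07 to 1.003, where the call was lost by their mean (-0.35, adjusted p = 0.271). Exoc7, a membrane-binding exocyst subunit, was higher in KO by 0.42 ± 0.0885 (adjusted p = 0.0262) and 0.46 ± 0.0885 (adjusted p = 0.00574). Without GH that call was lost when WT 2 (adjusted p = 0.0688), WT 3 (0.0966), KO 2 (0.13), KO 3 (0.0658), KO with GH 1 (0.0507) or KO with GH 2 (0.0515) was left out. The list's medians were 0.06 and -0.03.

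**Figure D5:**
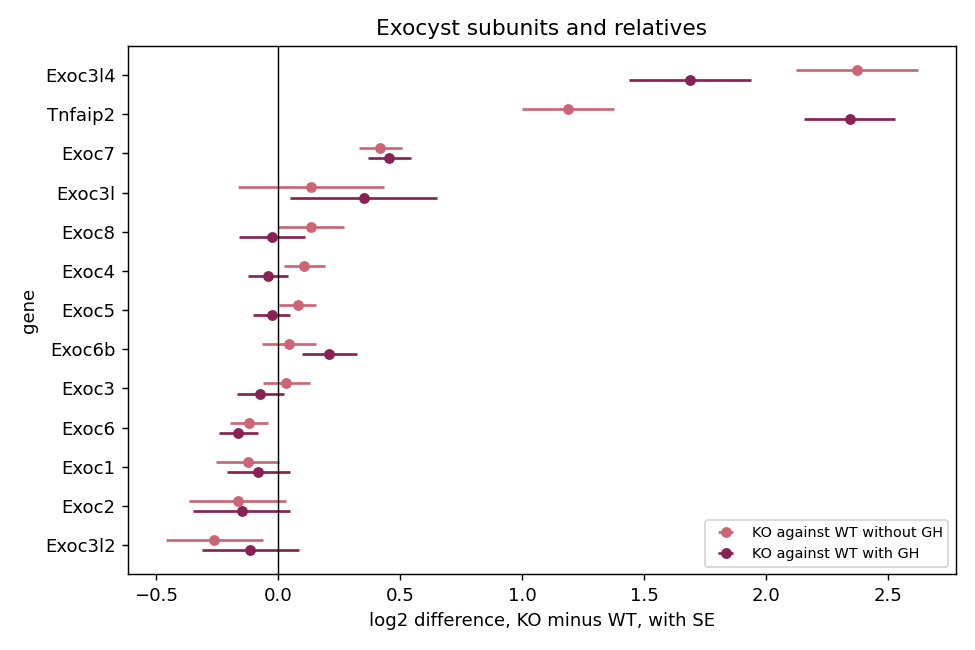
KO minus WT on the log2(signal + 25) scale, with SE, for Exoc3l4 and the 12 exocyst subunits and relatives, without and with GH. Tnfaip2 (1.19 and 2.34) and Exoc7 (0.42 and 0.46) are the 2 genes of the list past the threshold in both, and Exoc3l4 is shown for its values only.

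The enzymes around Ak4 gave few calls between the genotypes. Of 12 adenylate kinases and genes of adenine nucleotide handling 0 passed without GH by limma (1 had an unadjusted p under 0.05), and with GH 0 rose and 1 fell, the mitochondrial ADP/ATP carrier Slc25a5 (-0.38 ± 0.0777, adjusted p = 0.00871). Its 8 probe sets gave -0.38 to 0.06, and the call was lost by their mean (-0.24, adjusted p = 0.117) and without KO with GH 2 (adjusted p = 0.0595) or KO with GH 3 (0.0537). Ak1, the main cytosolic adenylate kinase of muscle, differed by 0.01 ± 0.0901 and -0.09 ± 0.0901, and Ak3, the other matrix enzyme, by 0.11 ± 0.0775 and 0.18 ± 0.0775. Ampd3, an AMP deaminase, rose with GH in WT (1.03 ± 0.103, adjusted p = 9.3e-06) and KO (1.31 ± 0.103, adjusted p = 5.27e-07). Ak4 is known as a hypoxia-inducible gene, and of 16 such genes 0 passed in KO without GH by limma (3 had an unadjusted p under 0.05), while with GH 1 rose and 2 fell (0 to 2 when single arrays were left out). The riser was the glucose transporter gene Slc2a1 (0.97 ± 0.126, adjusted p = 0.000203), which without GH differed by -0.09 ± 0.126.

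Of the 20 genes that lie up to 2 places to either side of the 5 genes in the RefSeq order, 14 were bright enough to test. Tnfaip2 beside Exoc3l4 was higher in KO in both conditions, and Palld beside 4930512H18Rik was lower without GH (-0.36, adjusted p = 0.0496). The other 12 did not pass in either condition. The serpin neighbours of Serpinb1a, Serpinb6b and Serpinb9, differed by 0.25 and 0.13 without GH and by 0.58 and 0.25 with GH. The Fgfbp1 neighbour Prom1 differed by -0.22 and -0.45, and the Ak4 neighbour Jak1, the gene of a cytokine receptor kinase, by 0.07 and 0.11.

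The genes whose log2 values were most like those of the 5 over the 12 arrays were named from all genes tested. The 12 arrays hold the genotype difference on which the 5 were chosen, so genes ranked this way tend to share it. Their p-values for KO against WT are therefore no separate support. Fgfbp1 was most like Tmem176b (r = 0.96), Ache (0.96) and Bex1 (0.95), and Serpinb1a was most like Ache (0.95), Ets2 (0.95) and Kcnc4 (0.95). Exoc3l4 was most like Naprt (0.97), Gamt (0.96) and Mlip (0.95), and 4930512H18Rik was most like Naprt (0.97), Atp9a (0.94) and Mlip (0.93). Ak4 was most like Dop1b (0.95), Clu (0.94) and Septin11 (0.94). Within groups the likeness remained high for Ak4, with correlations of deviations of 0.79, 0.75 and 0.88, and for 4930512H18Rik with Naprt (0.84), but it was near 0 for Fgfbp1 with Ache (-0.08). Ache encodes the acetylcholinesterase of the neuromuscular junction, and its signal was 630.9 ± 79.3 in WT, 1075 ± 65.8 in KO and, after GH, 643.3 ± 14.9 in WT and 1197 ± 47.7 in KO. It was 1 of 14 junction and denervation genes higher in KO without GH (0.75 ± 0.0987, adjusted p = 0.000837), and with GH 2 rose, Ache (0.87 ± 0.0987, adjusted p = 5.76e-05) and Gadd45a (1.13 ± 0.162, adjusted p = 0.000549), while 1 fell (0 to 2 when single arrays were left out).

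For known STAT5 targets the calls in KO were mostly falls. With GH, though, the target Socs3 had a mean signal of 9048 ± 279 in KO against 1952 ± 404 in WT. Of 8 such genes 0 rose and 2 fell in KO without GH, Socs2 (-2.29 ± 0.159, adjusted p = 1.74e-06) and Cish (-3.02 ± 0.461, adjusted p = 0.0134), both inhibitors of cytokine signalling. With GH 1 rose and 2 fell, or 1 fell when any 1 of the 6 arrays with GH was left out, among them Socs2 (-1.19 ± 0.159, adjusted p = 0.000283). The 6 probe sets of Socs2 gave -2.29 to 0.084 without GH and -1.28 to -0.065 with GH, and the call with GH was lost by their mean (-0.54, adjusted p = 0.0535). Markers of other cell types gave few calls between the genotypes: of 8 macrophage, 5 Schwann cell, 4 hepatocyte, 4 keratinocyte and 1 red cell genes 0 passed without or with GH by limma (0 and 0, 0 and 2, 2 and 1, 1 and 0, and 0 and 0 had an unadjusted p under 0.05). Of 8 endothelial genes 1 rose and 1 fell with GH, and of 6 adipocyte genes 1 rose without GH. No lymphocyte marker was bright enough to test, and the summed signal of the 6 on the array was 161.3 to 333.9 over the 12 arrays.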

How the data were processed

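The deposited table holds the authors' MAS5 signal, an untransformed intensity, for 45101 probe sets of 12 arrays. MAS5 is named in the submitters' processing notes, and its version and settings are not given in the sources used here. On every array the mean without the lowest and highest 2% of probe sets was 500. The precision is limited by the number of arrays, 3 per group. Nothing in the labels says whether the arrays were run together.

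Left out were 64 control probe sets, 932 that name more than 1 gene and 9160 that name none, so that 34945 remained for 18193 genes. A gene was represented by its brightest probe set. Genes were kept where the mean of log2(signal + 25) lay above the 40th percentile of all probe sets that are not controls (6.253), which left 12654.

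Differences were fitted with limma 3.58.1 (R 4.3.3, statmod 1.5.0): 1 mean per group over 12 arrays, 8 residual degrees of freedom, then eBayes with the trend and robust options. P-values were 2-sided and Benjamini-Hochberg adjusted across the genes kept, with a threshold of 0.05. The words "rose" and "fell" are kept for genes that passed. ± is the SE of a difference, or the SD of a signal. The fit was also run on simulated data, whose outcome is not given here and is no support for the results. Array quality was compared by exact permutation tests, 6 arrays against 6.

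The 5 genes and the gene lists were chosen with earlier results of these data known. From each list, counts per comparison are given and at most 3 members with the smallest p past the threshold are named, with further members where a result turns on them: Fgfbp3, Serpinb9, Serpinb6b, Ak1, Ak3, Slc25a5, Ngp, Lcn2, S100a8, Prtn3, Mmp9, Elane, Mpo, Cish, Socs3 and Gadd45a were named after their values were seen. Genes most like each of the 5 were ranked by Pearson correlation over the 12 arrays. Alternatives were other pseudocounts, filters, scalings, summaries of probe sets, variance models, covariates and the arrays left out in turn. Promoters came from a RefSeq table, GRCm38.p6.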

Additional observations from a re-analysis of the deposited data

How the results depend on the processing

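No paired analysis was possible because the sample titles share no replicate or animal number between groups. Apart from the fits that left out 1 array each, 392 of 450 alternative values for the 5 genes and the counts of called genes kept their direction and their side of the threshold or stayed within the spread. KO minus WT of all 5 genes stayed above 0 in every alternative run, with a lowest value of 0.57 (Ak4 with GH, mean of all its probe sets). The 5 genes were chosen on these differences in the same arrays, so this sign is no separate support. The 450 values include these differences. A dim Ak4 probe set taken alone gave -0.59 with GH. Without GH and with GH, a pseudocount of 100 gave 1.45 and 1.501 for Fgfbp1, 1.33 and 2.08 for Serpinb1a and 1.86 and 0.99 for 4930512H18Rik. A pseudocount of 1 gave 2.31 and 2.17 for Fgfbp1 and 3.61 without GH for 4930512H18Rik. The mean of all probe sets gave 0.92 and 2.07 for Serpinb1a and 0.84 and 0.57 for Ak4. The slow-fibre covariate gave 2.33 for Fgfbp1 and 1.79 for 4930512H18Rik without GH, the actin covariate 2.92 for Serpinb1a and 1.24 for Exoc3l4 with GH, and leaving out WT 1 and KO 3 together 2.20 for Fgfbp1 without GH. Leaving out each array in turn gave 1.99 to 2.66 for Exoc3l4 without GH.

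The GH difference in KO of 4930512H18Rik was under the threshold with a pseudocount of 100 (-0.72, limma adjusted p = 0.0395) and with array weights (-0.84, 0.0438). These p-values are no support for a difference, since this gene passed the main filter on low signals only through its KO arrays. The GH difference in KO of Exoc3l4 passed among genes above the 60th percentile (-0.70, limma adjusted p = 0.0479), where 4930512H18Rik was not tested, and with array weights (-0.55, 0.0231). Leaving out arrays in turn gave -0.996 to -0.32 for Exoc3l4 and -1.31 to -0.55 for 4930512H18Rik. Ak4 passed for GH in WT with array weights (0.85, 0.0122) and without WT 1 and KO 3 (0.91, 0.00703), and averaged over genotypes with both (0.50, 0.0126, and 0.60, 0.00537). Leaving out arrays in turn gave 0.23 to 0.91 in WT, -0.036 to 0.30 in KO and 0.21 to 0.55 averaged for Ak4, and -0.51 to -0.17 averaged for Exoc3l4. The averaged Fgfbp1 call was lost after quantile normalisation (0.26, 0.103), with the actin covariate (0.28, 0.74) and without WT 1 and KO 3 (0.29, 0.0581), and ranged from 0.28 to 0.43 over arrays left out. Serpinb1a lost both GH calls with the actin covariate (1.86, 0.0537 in KO and 1.31, 0.0568 averaged).

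Differences that were not called changed sign for Exoc3l4 with GH in WT (0.034 with arrays centred on their median, 0.12 with array weights, 0.13 without WT 1 and KO 3, and -0.17 to 0.13 over arrays left out), Serpinb1a with GH in WT (-0.035, mean of probe sets), 4930512H18Rik with GH in WT (-0.36 with the slow-fibre and -0.055 with the actin covariate), Ak4 with the actin covariate (-0.46 in KO, -0.13 averaged) and the interaction of Fgfbp1 (0.054 with a pseudocount of 100, 0.11 after quantile normalisation, -0.22 to 0.077 over arrays left out). Of the relatives, Serpinb8 in KO was -0.049 by the mean of its probe sets and Sln in KO 0.08 with the actin covariate. The cause of these changes was not tested.

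Genes called higher in KO numbered 98 without GH and 306 with GH. Without the trend and robust setting there were 54 without GH and 77 interactions in place of 118, with array weights 150, 655 and 214 interactions, with the slow-fibre covariate 17 without GH and 866 for GH in WT, and without WT 1 and KO 3 together 156, 499 and 207 interactions. With the actin covariate there were 85 higher in KO with GH, 487 for GH in WT, 123 for GH in KO, 229 for GH averaged and 54 interactions, and with only the groups compared in the fit 23 and 618. Leaving out arrays in turn gave 66 to 131 without GH, 192 to 390 with GH and 76 to 143 interactions. A replicate left out leaves 2 arrays in its group, and genes near the lowest signals, such as 4930512H18Rik in WT, depend most on the pseudocount.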
